A study of Mus musculus with 6 samples.

Results

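The proteasome genes described here are the 3 inducible catalytic subunits of the immunoproteasome (Psmb8, Psmb9 and Psmb10), the 3 constitutive catalytic subunits that they replace (Psmb5, Psmb6 and Psmb7) and the 3 subunits of the PA28 activators (Psme1, Psme2 and Psme3). They were chosen by name for their place in the complex, with earlier results of these data known. All 9 were found by gene symbol among the 54752 genes of the count tables. They passed the filter on low counts, which left 18617 genes for testing. Their mRNA was measured by bulk RNA-seq in the whole right hippocampus of wild-type C57BL/6 mice, which the methods give as male C57BL/6 J and the labels as 14 weeks of age. Bilateral carotid artery stenosis (BCAS) places a wire microcoil around each common carotid artery, the narrower coil on the right, so that blood flow to the forebrain stays low. Sham mice had the same surgery without coils. Each group had 3 mice, taken 3 weeks after surgery, and each library was from the right hippocampus, which in BCAS mice is the side of the narrower coil. The libraries held between 29652456 and 35607098 reads assigned to genes, with both mates of a read pair counted.

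The proteasome is a barrel of stacked rings that degrades ubiquitin-tagged proteins. Its catalytic sites lie on beta subunits of the inner rings: Psmb5 carries the chymotrypsin-like site, Psmb6 the caspase-like site and Psmb7 the trypsin-like site. Under interferon, and constitutively in many immune cells, newly assembled barrels take up Psmb8 in place of Psmb5, Psmb9 in place of Psmb6 and Psmb10 in place of Psmb7, and the resulting immunoproteasome cuts proteins into peptides that favour presentation on MHC class I. The PA28 activators cap the ends of the barrel: Psme1 and Psme2 form a mixed ring that interferon induces, whereas Psme3 forms a ring of its own, mainly in the nucleus. In brain, immunoproteasome subunits are known mostly from microglia and infiltrating leukocytes, and neurons rely on the constitutive set.

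In the BCAS hippocampus, all 3 immunoproteasome genes rose, but by very different amounts: Psmb8 8.16-fold, Psmb9 5.23-fold and Psmb10 1.41-fold over the Sham mean (3 mice per group). Of the constitutive genes, Psmb5 fell by 30.6%, and Psmb6 and Psmb7 did not pass the test. Of the PA28 subunits, Psme1 and Psme2 rose 1.59-fold and 1.55-fold, and Psme3 did not pass. These 6 calls were made with edgeR's quasi-likelihood test at an adjusted p under 0.05 over all tested genes, a threshold that 31.3% of the tested genes passed, 18% upward and 13.2% downward. Changes were therefore common in this tissue, and the count of calls among the 9 genes has to be read against that share.

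The promoter sequences of members of both catalytic sets are shown first, since some hold motifs that the known regulators of these genes bind. The reference tables gave RefSeq windows, from 250 bases before to 50 bases after the start of transcription, for 8 of the 9 genes on build GRCm38.p6, which has the coordinates of mm10. The windows were searched on both strands, first for GAAA, any 2 bases and GAAA. This is the core of the interferon-stimulated response element that interferon regulatory factors bind. The second motif was TTCNNNGAA, the gamma-activated site of the interferon gamma response. The third was GGGA, any 4 bases and CC, a kappa B motif. The fourth was TGACNNNGC, the antioxidant response element read by Nfe2l1 and Nfe2l2. Among all 32851 mouse windows, 3.44% held the first, 8.3% the second, 20.7% the third and 12.4% the fourth. Capitals mark the matches. The Psmb8 stretch (chr17:34197945-34198194, plus strand) held a gamma-activated site 97 to 89 bases before the start. The Psme1 stretch (chr14:55578244-55578523, plus strand, running 30 bases past the start) held the interferon-stimulated core on its reverse strand at bases 10 to 19 of the transcript. The Psmb5 stretch (chr14:54617996-54618245, minus strand) held an antioxidant response element 47 to 39 bases before the start. The Psmb6 stretch (chr11:70525107-70525356, plus strand) held one 9 to 1 bases before the start. These starts are those of RefSeq. In the GENCODE annotation used for counting, Psmb8 starts at 34197721 and Psme1 at 55578123, so that their stretches lie inside the counted genes. Psmb5 begins at 54618022 there, inside its stretch.
Psmb8: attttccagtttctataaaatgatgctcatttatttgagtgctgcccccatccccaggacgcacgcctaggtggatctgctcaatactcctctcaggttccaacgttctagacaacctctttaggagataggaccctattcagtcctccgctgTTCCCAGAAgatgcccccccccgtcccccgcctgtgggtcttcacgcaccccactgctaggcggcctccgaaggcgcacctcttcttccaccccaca
Psme1: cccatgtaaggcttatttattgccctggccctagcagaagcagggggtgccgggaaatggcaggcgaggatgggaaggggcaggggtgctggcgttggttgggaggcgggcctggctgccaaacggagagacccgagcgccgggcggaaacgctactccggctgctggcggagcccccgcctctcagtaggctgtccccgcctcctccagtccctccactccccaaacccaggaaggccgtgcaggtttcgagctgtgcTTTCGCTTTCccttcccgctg
Psmb5: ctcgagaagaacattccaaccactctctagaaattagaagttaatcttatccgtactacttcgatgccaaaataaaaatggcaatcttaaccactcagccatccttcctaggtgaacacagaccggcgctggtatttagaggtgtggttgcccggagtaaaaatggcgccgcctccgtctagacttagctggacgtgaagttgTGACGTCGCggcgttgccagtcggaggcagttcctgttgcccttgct
Psmb6: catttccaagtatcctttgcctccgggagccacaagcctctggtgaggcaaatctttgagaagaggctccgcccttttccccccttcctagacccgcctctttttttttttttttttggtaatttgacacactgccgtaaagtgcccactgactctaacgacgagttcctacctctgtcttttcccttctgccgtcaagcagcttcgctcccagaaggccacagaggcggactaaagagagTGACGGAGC

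Psmb9 lies back to back with Tap1, which encodes a subunit of the pump that carries proteasome products into the endoplasmic reticulum. Their RefSeq starts of transcription, at 34187330 and 34187556 of chromosome 17, leave 225 bases between them (chr17:34187331-34187555, plus strand, reading toward Tap1). In the GENCODE annotation used for counting there is no such gap, since Psmb9 ends at 34187764 and Tap1 starts at 34187553. The 225 bases held 0 matches to the 4 motifs. Both genes rose, Psmb9 by 2.38 and Tap1 by 2.69 on the log2 scale, and the stretch between the RefSeq starts is shown because it lies directly upstream of both.
Psmb9-Tap1: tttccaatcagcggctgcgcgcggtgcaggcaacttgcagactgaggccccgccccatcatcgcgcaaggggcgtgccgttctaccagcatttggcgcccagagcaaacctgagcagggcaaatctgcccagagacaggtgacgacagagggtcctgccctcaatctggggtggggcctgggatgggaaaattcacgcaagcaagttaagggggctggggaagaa

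The windows of Psmb10, Psme2 and Psme3 held no match either, which says only that these letters are not in these windows. Among genes named below, the B2m window held an interferon-stimulated core and a kappa B motif, and the Irf1 window a gamma-activated site and a kappa B motif. A match is a string of letters and was not tested as a binding site.

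Psmb8, the inducible partner of Psmb5, was the most changed of the 9 genes. The gene (ENSMUSG00000024338.14, chr17:34197721-34201454, plus strand, inside the MHC region) had 54, 54 and 51 counts in Sham mice 1 to 3 and 261, 367 and 566 in BCAS mice 1 to 3. Scaled to library size with TMM factors (CPM), these were 1.59, 1.61 and 1.49 in Sham and 8.03, 12.2 and 18.1 in BCAS. The groups did not overlap, and the BCAS mice spread widely while the Sham mice lay close together. The mean was 1.56 ± 0.0691 CPM in Sham and 12.8 ± 5.08 in BCAS (SD, n = 3 each). The log2 fold change was 3.03 (SE 0.29, 95% interval 2.36 to 3.69, edgeR adjusted p = 1.38e-04), higher than that of 98.1% of the tested genes. Its exons share 186 bases with Gm20496 on the opposite strand, which had at most 3 counts in any library. Every BCAS mouse lay above every Sham mouse in 25.3% of all tested genes, and below in 22.7%.

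Psmb9, the inducible partner of Psmb6, lies in the same region, with Tap1 between it and Psmb8 (ENSMUSG00000096727.2, chr17:34181988-34187764, minus strand). Its levels were 1.74, 2.21 and 2.33 CPM in the Sham mice and 8.92, 9.77 and 14.2 CPM in the BCAS mice, from 59 to 80 counts and from 290 to 442 counts. The lowest BCAS mouse was thus well above the highest Sham mouse. The Sham mean was 2.09 ± 0.313 CPM and the BCAS mean 10.9 ± 2.81 CPM, and edgeR put the log2 fold change at 2.38 (SE 0.22, 95% interval 1.88 to 2.89, edgeR adjusted p = 1.20e-04).

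Psmb10, the inducible partner of Psmb7, had the highest counts of the 3 inducible genes in Sham hippocampus and the smallest rise. The gene (ENSMUSG00000031897.9, chr8:105935735-105938444, minus strand) stands outside the MHC region. It measured 19, 22.7 and 23.9 CPM in Sham and 27.2, 30.4 and 34.7 CPM in BCAS, again without overlap. The log2 fold change was 0.49 (SE 0.13, 95% interval 0.20 to 0.78, edgeR adjusted p = 0.0185), so its interval lay wholly below those of Psmb8 and Psmb9, a difference between genes that was not tested. Its call was lost without Sham mouse 1 (log2 fold change 0.40, adjusted p = 0.0725) and without BCAS mouse 3 (0.39, adjusted p = 0.0608). Psmb8 and Psmb9 also passed the stricter rule of the study's methods, an absolute log2 fold change above 1, which 8.47% of the tested genes passed upward and 0.999% downward. Psmb10 and the other 6 genes did not pass it.

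**Figure D1:**
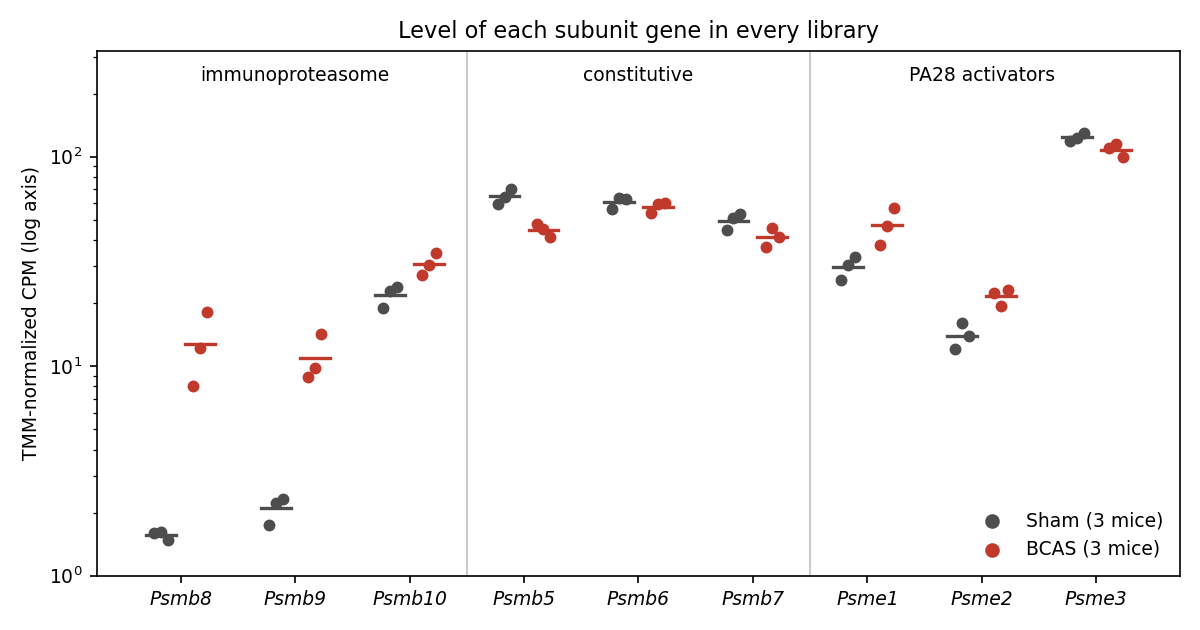
TMM-normalized CPM (log axis) of the 9 genes in each of the 6 libraries; each point is a mouse and each short line the mean of 3 mice. Sham and BCAS points are apart for Psmb8, Psmb9, Psmb10, Psmb5, Psme1, Psme2 and Psme3 and overlap for Psmb6 and Psmb7. Of all tested genes, 25.3% had every BCAS mouse above every Sham mouse and 22.7% every BCAS mouse below.

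Psmb5, the constitutive chymotrypsin-like subunit, was the only constitutive gene that passed the test, and it fell. The gene (ENSMUSG00000022193.7, chr14:54614119-54618022, minus strand) measured 59.5, 64.2 and 69.9 CPM in Sham and 47.6, 45.3 and 41.4 CPM in BCAS. All BCAS mice lay below all Sham mice. The means were 64.5 ± 5.23 and 44.8 ± 3.14 CPM, and the log2 fold change was -0.53 (SE 0.09, 95% interval -0.73 to -0.33, edgeR adjusted p = 0.00263). Of its 899 exon bases 109 (12.1%) are shared with Mir686 on the same strand, which had 0 counts in every library, and reads on them were assigned to neither gene. BCAS mouse 3 had the highest Psmb8 and the lowest Psmb5 of the 6 libraries.

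Psmb6, the constitutive caspase-like subunit (ENSMUSG00000018286.6, chr11:70525367-70527858, plus strand), had nearly the same range in both groups. It measured 56.0, 63.1 and 62.9 CPM in Sham and 54.0, 59.3 and 60.0 CPM in BCAS, with a log2 fold change of -0.07 (SE 0.08, 95% interval -0.25 to 0.11, edgeR adjusted p = 0.545). The interval excludes a fall of the size fitted for Psmb5. Scaled by library totals alone, the sign of the Psmb6 difference turned (log2 fold change 0.0058, adjusted p = 0.967).

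Psmb7, the constitutive trypsin-like subunit (ENSMUSG00000026750.6, chr2:38588036-38644087, minus strand), measured 44.6, 50.9 and 53.0 CPM in Sham and 37.2, 45.4 and 41.1 CPM in BCAS. BCAS mouse 2 overlapped the Sham range. The log2 fold change was -0.26 (SE 0.10, 95% interval -0.49 to -0.03, edgeR adjusted p = 0.0788), and without BCAS mouse 2 it passed the test at -0.35 (adjusted p = 0.0302). Psmb7 shares 405 exon bases with Nek6 on the opposite strand. The counting ignored strand, so that reads on these bases were assigned to neither gene.

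Psme1, the alpha subunit of the interferon-induced PA28 ring (ENSMUSG00000022216.17, chr14:55578123-55581529, plus strand), measured 25.7, 30.3 and 33.0 CPM in Sham and 37.9, 46.4 and 56.8 CPM in BCAS. All BCAS mice were above the Sham range, with mouse 3 the highest. The log2 fold change was 0.66 (SE 0.15, 95% interval 0.32 to 1.01, edgeR adjusted p = 0.0112). The call was lost without Sham mouse 1 (0.57, adjusted p = 0.0545).

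Psme2, the beta subunit of the same ring (ENSMUSG00000079197.10, chr14:55587441-55591113, minus strand), lies close to Psme1 on chromosome 14. It measured 12, 16 and 13.9 CPM in Sham and 22.4, 19.4 and 23.2 CPM in BCAS, a log2 fold change of 0.63 (SE 0.13, 95% interval 0.33 to 0.93, edgeR adjusted p = 0.00785). The groups did not overlap. Its value is uncertain in part because a near-identical copy, Psme2b on chromosome 11, can share its reads, and reads that map to several places were not counted. Psme2b measured 3.88 ± 0.777 CPM in Sham and 7.40 ± 2.0 CPM in BCAS, a log2 fold change of 0.93 (edgeR adjusted p = 0.0173), so that both copies were higher in BCAS.

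Psme3, the subunit of the nuclear PA28 ring that interferon is not known to induce (ENSMUSG00000078652.9, chr11:101316213-101323537, plus strand), measured 119, 123 and 130 CPM in Sham and 110, 115 and 99.7 CPM in BCAS. The BCAS mice were all below the Sham mice, but by little. The log2 fold change was -0.20 (SE 0.08, 95% interval -0.38 to -0.02, edgeR adjusted p = 0.0812), which did not pass. Without BCAS mouse 2 it passed at -0.25 (adjusted p = 0.0366).

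**Figure D2:**
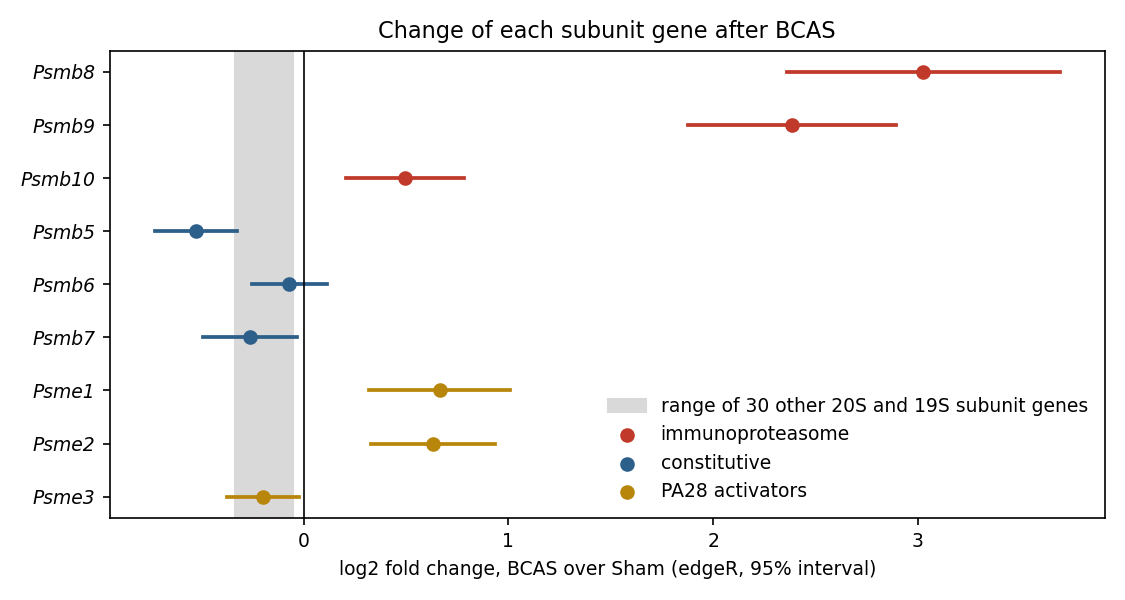
Log2 fold change of BCAS over Sham for each of the 9 genes (points) with its 95% interval from edgeR (lines), beside the range of the 30 other subunit genes of the 20S and 19S particles (grey band, -0.33 to -0.05). Psmb8, Psmb9, Psmb10, Psme1 and Psme2 lie right of the band, Psmb6, Psmb7 and Psme3 within it and Psmb5 left of it.

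Per length, as the share of all reads per exon base (TPM), the order of the 9 genes in Sham hippocampus was Psmb5 (243 ± 13.2), Psme3 (142 ± 2.84), Psmb6 (110 ± 5.01), Psmb7 (48.9 ± 3.05), Psme1 (45.4 ± 4.47), Psmb10 (43.3 ± 4.07), Psme2 (26.8 ± 3.51), Psmb8 (1.94 ± 0.127) and Psmb9 (1.93 ± 0.242). The ranges over mice of Psmb7, Psme1 and Psmb10 overlapped, although these genes had the same order in all 3 Sham libraries. Psmb8 and Psmb9 overlapped and changed places between libraries, and the other neighbours in that order were apart. In BCAS the order was Psmb5 (174 ± 11.1), Psme3 (128 ± 6.40), Psmb6 (108 ± 6.53), Psme1 (74.6 ± 15.9), Psmb10 (63.2 ± 8.52), Psme2 (43.0 ± 4.82), Psmb7 (42.1 ± 3.58), Psmb8 (16.4 ± 6.75) and Psmb9 (10.5 ± 2.88). The ranges of Psme1 and Psmb10 and of Psmb8 and Psmb9 overlapped over mice, with Psme1 and Psmb8 the higher in all 3 BCAS libraries, whereas Psme2 and Psmb7 changed places between libraries. In these units Psmb10 thus stood above its constitutive partner in BCAS, while Psmb8 and Psmb9 remained the least abundant of the set. The lengths sum all annotated exons of a gene, so the order between genes depends on the annotation. In a difference between groups, the length of the gene itself cancels. The annotation also decides which reads are counted for a gene.

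To compare each inducible gene with the subunit that it replaces, the ratio was taken within each library, which removes the scaling between libraries. The share of Psmb8 in the sum of Psmb8 and Psmb5, in reads per kb, was 0.872%, 0.820% and 0.693% in the Sham mice and 5.25%, 8.10% and 12.6% in the BCAS mice. The share was low and narrow in Sham and spread widely between the BCAS mice. For Psmb9 with Psmb6 it was 1.57%, 1.76% and 1.86% in Sham and 7.80%, 7.77% and 10.8% in BCAS. For Psmb10 with Psmb7 it was 46.0%, 47.2% and 47.6% in Sham and 59.5%, 57.4% and 62.9% in BCAS. In all 3 pairs the groups were apart. The height of a share depends on the annotated exon lengths, which were 1705 bases for Psmb10 and 3421 for Psmb7. In counts not divided by length, Psmb10 stayed below Psmb7 in the BCAS mice (885, 919 and 1084 against 1210, 1371 and 1284).

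The log2 ratio of Psmb8 to Psmb5 was 3.48 higher in BCAS (11.1-fold), that of Psmb9 to Psmb6 2.44 higher (5.42-fold) and that of Psmb10 to Psmb7 0.76 higher (1.69-fold). The same ratio against Psme3 was 0.85 higher for Psme1 (1.81-fold) and 0.84 higher for Psme2 (1.79-fold). For each of these 5 ratios the 2-sided exact permutation test over the 6 mice gave p = 0.1, raw and after Benjamini-Hochberg adjustment, which is the smallest value that 3 against 3 mice allow. The test therefore cannot pass the threshold in this design, and the sizes are given as measured.

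**Figure D3:**
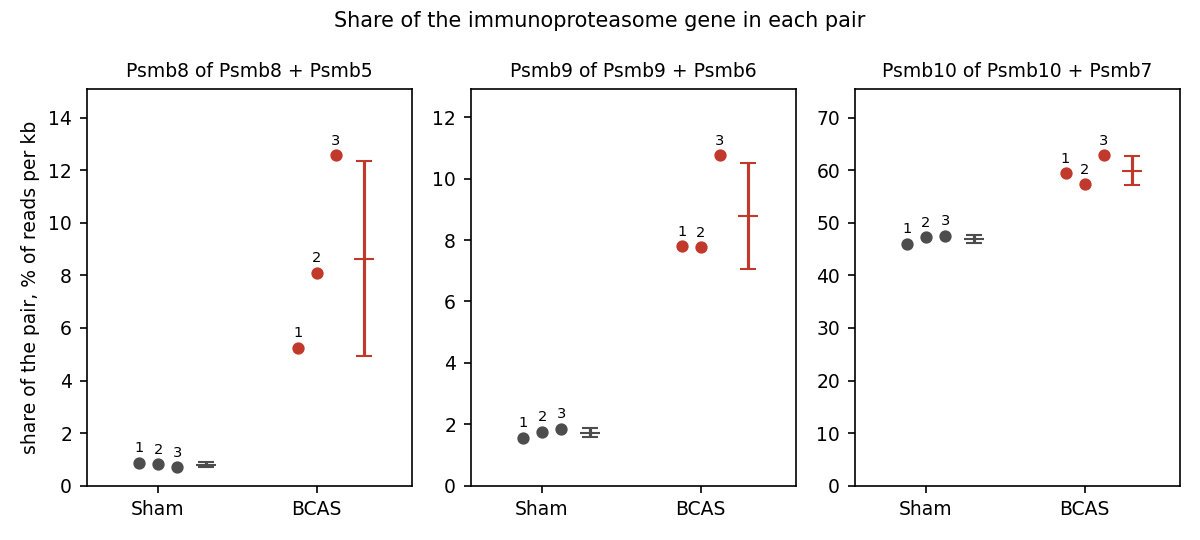
Share of the immunoproteasome gene in each catalytic pair, in percent of the reads per kb of both genes; points are mice, numbered by replicate, and the bars beside them show the mean ± SD of 3 mice. The share rises from 0.795 to 8.64% for Psmb8, from 1.73 to 8.78% for Psmb9 and from 46.9 to 59.9% for Psmb10; each panel has its own axis from 0.

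Summed over the 3 sites, the immunoproteasome genes came to 47.2 ± 4.22 TPM in Sham and 90.1 ± 18.1 TPM in BCAS, and the constitutive genes to 401 ± 19.6 and 324 ± 2.29 TPM. The inducible share of the TPM of the 6 catalytic genes was 10.04%, 10.8% and 10.7% in the Sham mice and 18.7%, 20.7% and 25.5% in the BCAS mice. Its height too depends on the annotated exon lengths. Most of the inducible sum was Psmb10 in both groups. The total of the 6 catalytic genes was 448 ± 23.8 TPM in Sham and 414 ± 15.8 TPM in BCAS, whose ranges overlapped. These are mRNA levels, and the assembled particles were not measured.

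No other subunit gene of the particle was called higher. None of the 30 other genes of the 20S core (alpha ring and non-catalytic beta subunits) and of the 19S cap (base and lid) rose, and 6 fell: the ATPase genes Psmc1 and Psmc5 (log2 fold changes -0.29 and -0.28) and the lid genes Psmd6, Psmd7, Psmd12 and Psmd14 (-0.33, -0.28, -0.33 and -0.33). Psmd14 encodes the deubiquitinase of the lid. Over all tested genes, 18% were called higher and 13.2% lower. Their median log2 fold change was -0.21, against 0.018 over all tested genes, and all 30 were below 0 (27 of 30 with scaling by library totals). The number that fell rested on single libraries: it was 0 without Sham mouse 2 or Sham mouse 3 and 15 without BCAS mouse 2, and 2 with scaling by library totals.

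Among the assembly chaperones, the maturation factor Pomp, which interferon induces in other cells along with the immunoproteasome, had a log2 fold change of 0.09 (edgeR adjusted p = 0.451). Of the 8 chaperone genes tested, only Psmd5 passed, at -0.25 (edgeR adjusted p = 0.0314). By comparison, 13.2% of all tested genes were called lower and 18% higher. The number of chaperone genes called lower was 0 with library totals, without the filter on low counts and without Sham mouse 2, Sham mouse 3, BCAS mouse 1 or BCAS mouse 3, and 2 with DESeq2, limma-voom or RLE size factors. Of 6 other regulators, only Usp14, a deubiquitinase bound to the cap, passed, at -0.48 (adjusted p = 0.0116), and none was called lower without Sham mouse 3 and 2 without BCAS mouse 2. Psme4, the gene of the activator PA200, had a log2 fold change of 0.05 (adjusted p = 0.742). Nfe2l2, a factor of the oxidative stress response, rose by 1.73 (adjusted p = 1.26e-04), and Nfe2l1, which raises constitutive proteasome genes when the proteasome is impaired, had a log2 fold change of -0.05 (adjusted p = 0.617).

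The genes downstream of the immunoproteasome, which load its peptides on MHC class I, were higher in BCAS. Of 11 such genes 9 rose, with a median log2 fold change of 1.31 over the list, and in all 11 every BCAS mouse was above every Sham mouse. Among the 18617 tested genes, 18% were called higher and 25.3% separated the groups in this direction. The class I heavy chains H2-D1 and H2-K1 rose by 3.52 and 3.11 and their light chain B2m by 3.19. The peptide pump genes Tap1 and Tap2 rose by 2.69 and 1.24, the tapasin gene Tapbp by 1.47 and the peptide trimming enzyme Erap1 by 1.31. The general chaperones Calr and Canx did not pass (0.23 and 0.11).

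Tap1, the neighbour of Psmb9, measured 4.13, 4.75 and 4.02 CPM in Sham and 21.9, 22.6 and 38.9 CPM in BCAS (edgeR adjusted p = 7.84e-05). BCAS mouse 3 was the highest for it, as for all 3 immunoproteasome genes and both inducible PA28 genes. The annotated exons of Tap1 and Psmb9 overlap on opposite strands over 212 bases, and reads on these were assigned to neither gene.

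Factors known from the interferon response were higher too: 7 of 7 rose, and 6 of 7 were called without Sham mouse 2. Whether they acted on the promoters of the members in this tissue was not tested. The share of all tested genes called higher was 18%. Nlrc5, the coactivator of class I genes and Psmb9, rose by 3.25, Irf8 of the myeloid lineage by 4.01, Irf9 by 1.898 and Irf1, which activates the Psmb9 and Tap1 promoter, by 1.34. Of the interferon receptor chains, Ifngr1, Ifnar2 and Ifnar1 rose (1.66, 1.21 and 0.41), and Ifngr2 had a log2 fold change of -0.08 and did not pass. The 2 interferon genes looked up were at the floor: Ifng had 0 counts in every Sham mouse and 2, 2 and 0 in the BCAS mice, and Ifnb1 had 0 counts in all mice except 2 in BCAS mouse 3, below the 3 counts taken as the limit of detection.

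Most markers of microglia, T cells and border macrophages were also higher in BCAS. All 10 microglia markers rose (median log2 fold change 2.87, range 1.54 to 4.33), and their summed level went from between 345 and 358 CPM in Sham to between 2091 and 3332 CPM in BCAS. All 5 T cell markers rose as well, from summed levels of 0.767 to 1.63 CPM to 7.06 to 7.66 CPM, and 3 of 5 border macrophage markers rose (9.36 to 13.8 and 23.4 to 31.2 CPM). None of these markers was at 0 in all libraries. For comparison, 18% of all tested genes were called higher. In bulk tissue fewer or more cells of a type and less or more RNA per cell cannot be told apart.

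Relative to the Sham mean, the microglia marker sum was 2.58, 2.67 and 3.25 higher on the log2 scale in BCAS mice 1 to 3. Psmb8 was 2.36, 2.96 and 3.53 higher in the same mice, Psmb9 2.09, 2.22 and 2.76, and Psmb10 0.32, 0.48 and 0.67. Psmb8 was thus of the size of the marker sum in each mouse, Psmb9 somewhat below it and Psmb10 far below it. Per unit of the microglia marker sum, the log2 level of Psmb8 was -7.81 ± 0.069 in Sham and -7.69 ± 0.29 in BCAS, a difference of 0.12. The corresponding difference was -0.46 for Psmb9, -2.34 for Psmb10, -2.18 for Psme1 and -2.19 for Psme2. The part of microglia number in these changes was not tested.

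**Figure D4:**
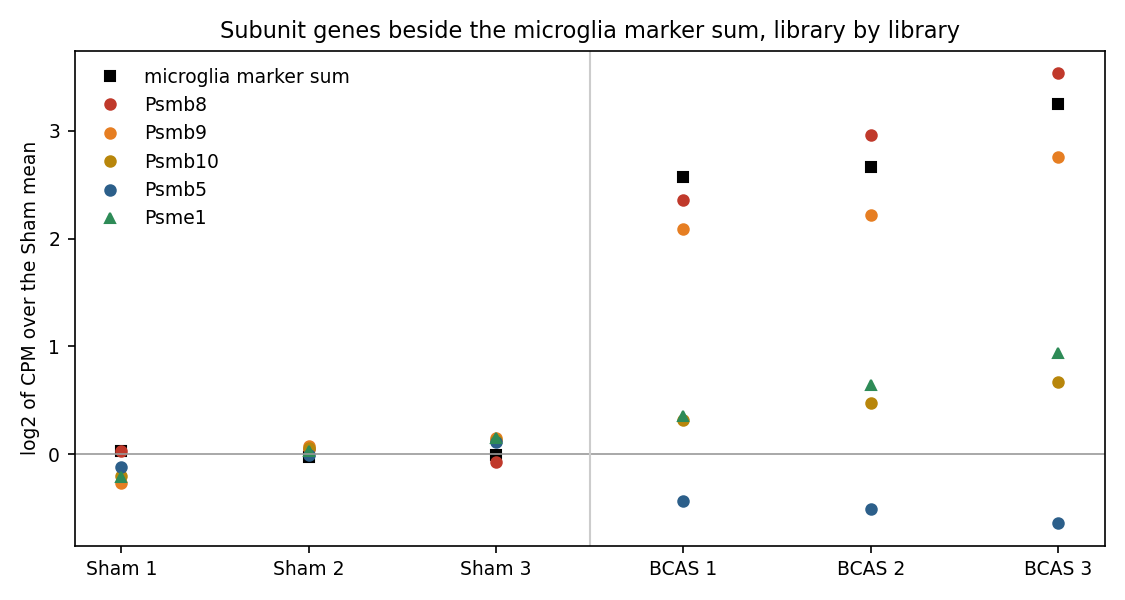
Log2 of the CPM over the Sham mean in each library for the summed microglia markers (squares), 4 catalytic genes (circles) and Psme1 (triangles). In the BCAS libraries Psmb8 and Psmb9 lie near the marker sum, Psmb10 and Psme1 between 0 and 1, and Psmb5 below 0.

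Neuronal markers moved the other way, as Psmb5 did. Of 6 neuron markers 5 fell (median log2 fold change -0.59), their summed level going from between 6677 and 7211 CPM in Sham to between 3720 and 5431 CPM in BCAS, and 3 of 5 markers of hippocampal principal cells fell, from summed levels of 659 to 701 CPM to 333 to 438 CPM. The 5 astrocyte markers rose, and 3 of 5 endothelium markers rose (median log2 fold change 0.52 over the list, summed levels of 176 to 198 CPM in Sham and 244 to 269 CPM in BCAS). None of the 5 blood markers passed, with summed levels of 85.6 to 102 CPM in Sham and 106 to 177 CPM in BCAS. None of the 5 oligodendrocyte markers passed. These counts stand beside 13.2% of all tested genes called lower and 18% called higher. Choroid plexus markers varied from 70.8 to 4078 CPM among the Sham mice and from 40.3 to 5919 CPM among the BCAS mice, without separating the groups. The part of neuronal number or neuronal RNA in the fall of Psmb5, and of endothelial or astrocyte RNA in the rises of Psmb10, Psme1 and Psme2, was not tested.

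The genes most like each inducible subunit were found by the root mean square difference of their log2 levels over the 6 libraries, each gene taken relative to its own Sham mean, among 15630 genes with at least 1 CPM. For Psmb8 they were Il10ra (0.093), a receptor chain of myeloid cells and lymphocytes, Lpxn (0.11) and Dhx58 (0.12), an interferon-induced RNA helicase. For Psmb9 they included Anxa3 (0.083) and Tspo (0.090). For Psmb10 they included Sik1 (0.061) and Amdhd2 (0.062).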

How the data were processed

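Right hippocampus of 3 Sham and 3 BCAS mice was compared, grouped by the labels. The authors trimmed the paired reads with Trim Galore, aligned them with HISAT2 to mm10 and counted them per gene with featureCounts. The deposited values are raw counts. Per the file headers (featureCounts 2.0.3, GENCODE M20), mates were counted as separate reads, without strand, and reads that mapped to several places or fitted several genes were left out; the submitters' processing notes name version 1.6.3. No further per-sample columns were left unused. The members and gene lists were chosen with earlier results of these data known.

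Symbols came from RefSeq tables (54723 of 54752 genes matched). Counts were filtered with filterByExpr, scaled by TMM and tested with edgeR 4.0.16 (R 4.3.3) by the quasi-likelihood test, with Benjamini-Hochberg adjustment over 18617 genes. The fit was also tried on simulated data, the outcome of which is not given here. DESeq2 1.42.0, limma-voom 3.58.1, other scalings, filters and call rules, halved counts, a replicate block and leaving out each library were alternatives. A count of 3 corresponds to 0.0874 to 0.0994 CPM, and p-values set the difference between groups against the spread between these mice. All 9 members and, per list, up to 3 called genes with the largest change per direction were named, and further genes for their role after their values were seen. Paaf1 was not matched, and some genes that the rule names are not reported here.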

Additional observations from a re-analysis of the deposited data

How the results depend on the processing

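Psmb8, Psmb9, Psmb5 and Psme2 kept their direction and their call under all 14 alternative fits. With all mice, the Psmb8 log2 fold change ranged from 2.93 to 3.11 and that of Psmb5 from -0.54 to -0.45. Leaving out single mice gave 2.68 to 3.27 for Psmb8, 2.15 to 2.51 for Psmb9, 0.39 to 0.57 for Psmb10, -0.59 to -0.47 for Psmb5, -0.35 to -0.20 for Psmb7, 0.50 to 0.80 for Psme1, 0.53 to 0.74 for Psme2 and -0.25 to -0.15 for Psme3. Psmb10 and Psme1 lost their call, and Psmb7 and Psme3 gained one, when a single mouse was left out, with the values given above. Psmb6 turned to 0.0058 with library totals. The cause was not tested.

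The number of constitutive genes called, 1, ranged from 1 to 2 and that of PA28 genes, 2, from 1 to 3 when single mice were left out. With the rule that also asks for an absolute log2 fold change above 1, both were 0. The number of other pathway genes called lower, 8, became 13 with DESeq2, 3 with library totals and 0 with the fold rule, and ranged from 0 to 18 when single mice were left out. Over all tested genes the fold rule left 1576 of 3356 higher calls and 186 of 2463 lower calls, and leaving out single mice gave 2453 to 3554 higher and 1260 to 3092 lower calls. The differences of the 5 ratios kept their direction throughout.

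With the replicate number as a block, 4 other pathway genes were called lower in place of 8 (0 assembly chaperones in place of 1), 6 of 7 interferon response factors were called higher in place of 7, and over all tested genes 2782 were called higher and 1750 lower in place of 3356 and 2463. Deviations of same-numbered mice correlated at 0.036, -0.314 and -0.158, so that the numbers were not taken as pairs. With 3 mice a group, calls for small changes such as those of Psmb7, Psme3 and the structural subunits rested on single libraries.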
